A study of Mus musculus with 4 samples.

Results

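The genes described here encode the phase II conjugation enzymes, measured in laser-captured Paneth cells of mice with and without gut microbes. They are the glutathione S-transferases (GST), the UDP-glucuronosyltransferases (UGT) and the sulfotransferases (SULT). Members were all genes whose array annotation symbol began with Gsta, Gstm, Gstp, Gstt, Gsto, Gstk, Gstz, Mgst, Ugt1a, Ugt2 or Sult and that had a probe set naming that gene alone. This gave 44 genes of 18193, made up of 23 GST, 8 UGT and 13 SULT genes. Where a gene had several probe sets, the brightest over the arrays was used. The 5 probe sets that name several genes of these families, among them every probe set of the Ugt1a locus, are given apart.

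The conventionalized group was male NMRI mice of 8 weeks that had been germ-free and then were colonized for 10 days with microbes from a mouse raised conventionally. The germ-free group was male NMRI mice of the same age, kept without microbes throughout. Paneth cells, the granule-filled secretory cells of the crypt base, were cut from frozen sections of small intestine, and RNA of 3 mice per group was pooled. Each pool was amplified as 2 aliquots of 10 ng, each hybridized to 1 Affymetrix mouse array, so the 2 replicates of a group repeat the amplification of 1 pool. Every p-value below therefore measures the difference between 2 pools against amplification and array error, and not against the spread between mice.

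Phase II enzymes attach a polar group to drugs, plant compounds, steroids, bile acids and reactive lipid products, which makes them more soluble and easier to export. GST enzymes use glutathione, UGT enzymes use glucuronic acid carried on UDP, and SULT enzymes use sulfate carried on PAPS (3'-phosphoadenosine 5'-phosphosulfate). In the small intestine these enzymes are best known from absorptive enterocytes, where they act on compounds that enter with food and bile.

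The arrays held bright signals of Paneth genes and also of other epithelial cells. Of 10 Paneth markers, 8 had a probe set naming them alone and all 8 passed the signal filter. Their summed signal was 191694.6 and 351701.9 on the conventionalized arrays, against 53518.3 and 98607.2 on the germ-free arrays. Markers of absorptive enterocytes were bright as well, with a summed signal of 121047.8 and 274269 on the conventionalized arrays and 108879.3 and 199964.5 on the germ-free arrays over 15 genes, none of them at 0. Of these 15, 12 had a log2 difference below 0 (median -0.52), and Apoc3, an apolipoprotein, was called lower. Summed signals of goblet cell markers were 107951.9 and 199594.4 against 49752.1 and 90767.2. Conventionalized replicate 2 stood apart, with Pearson correlations of 0.754 to 0.779 with the other arrays across tested probe sets, whereas the other 3 arrays correlated at 0.855 to 0.890 with each other. Median log2 differences, conventionalized minus germ-free, were 1.10 for Paneth, 0.47 for goblet, -0.24 for enteroendocrine, 0.13 for tuft, 0.02 for stem and -0.43 for fibroblast and smooth muscle markers. The file headers give fluidics station 2 for the conventionalized pair and station 1 for the germ-free pair, and this difference cannot be told apart from that of the groups.

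The question put to the conventionalized and germ-free pools was what colonization changes in the transcripts of Paneth cells. Among phase II enzymes, the glucuronosyltransferase gene Ugt2a3 and the glutathione transferase gene Gsta4 were called lower in the conventionalized pool. Neither call held under all alternative ways of processing. Most of the other UGT2 genes had lower signals without passing the test. Of 44 members, 32 had a mean signal above the filter (113.9, the median of all probe sets) and were tested, and 12 were too dim. A gene was called at an adjusted p under 0.05 from limma, with Benjamini-Hochberg adjustment over all 22491 probe sets tested. By this rule 2 of 32 members were called lower, Gsta4 and Ugt2a3, where 0.248% of the 12113 tested genes were called lower and 0.333% of the probe sets in either direction. No member was called higher by limma, where 0.107% of all tested genes were. At an unadjusted p under 0.05, 5 of 32 members were lower and 0 higher, against 3.91% of all tested genes lower and 2.02% higher. With so small a share higher on the whole array, 0 of 32 is near the background.

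The medians of the families lay apart, though no test was made of a difference between families. The log2 difference, conventionalized minus germ-free, had a median of -1.12 over 6 tested UGT genes, of -0.40 over 6 SULT genes and of -0.13 over 20 GST genes, where the median of all tested genes was 0.00022. With the dim members included, these medians were -0.84 over 8 UGT, -0.16 over 13 SULT and -0.10 over 23 GST genes. The GST median came to 0.24 without conventionalized replicate 1, so it has no settled direction. Both arrays of the conventionalized group lay below both germ-free arrays for 12 of 32 members, where 16.1% of tested genes did so, and above both for 2, where 15.9% did. Among the 12, Gsta4, Gsta2, Gstz1 and Sult1c2 had conventionalized means under the filter and passed it through their germ-free arrays. Among the 2, Gstt4 had a germ-free mean under the filter.

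**Figure D1:**
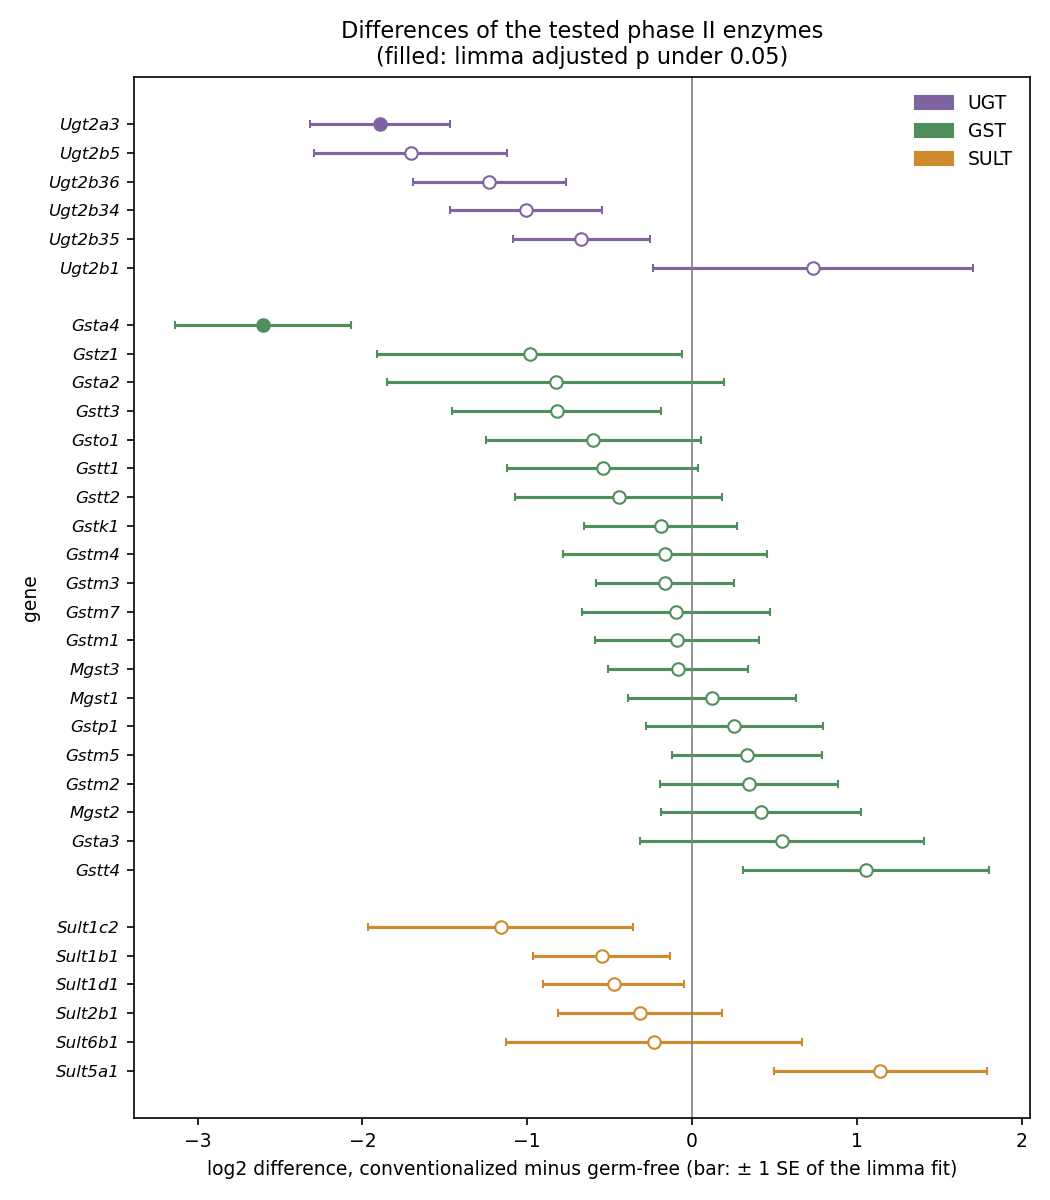
Log2 difference of signal (x axis, conventionalized minus germ-free, bars of 1 SE from the limma fit) for the 32 tested members, by family and in order of size. Gsta4 at -2.60 and Ugt2a3 at -1.89 are filled, being called; 5 of 6 UGT genes lie left of 0, while the GST genes spread on both sides.

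UGT enzymes sit in the membrane of the endoplasmic reticulum and transfer glucuronic acid to their substrates. Ugt2a3 (gene identifier 72094), whose human counterpart glucuronidates bile acids, gave signals of 533.6 and 383.5 on the conventionalized arrays, against 1614.9 and 1933.9 on the germ-free arrays. The arrays of the groups were well separated, and duplicates lay close together. Ugt2a3 fell by 1.89 on the log2 scale (SE 0.42, 2 arrays per group; limma adjusted p = 0.0046), a signal 3.71-fold lower on the scale of signal plus 32. The call was lost with quantile normalization (adjusted p = 0.067), with median centring (0.185), with the mean of all probe sets (0.199), with no variance trend, with the replicate block (0.110), and with germ-free replicate 1, germ-free replicate 2 or conventionalized replicate 2 left out (0.113, 0.415 and 0.173). Without the variance trend the limma adjusted p of Ugt2a3 was 0.9995. The difference itself ran from -2.11 to -1.67 over all alternatives. Ugt2a3 has 1 probe set, so the mean of all probe sets left its values unchanged. That fit ran over 10792 genes in place of 22491 probe sets.

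The Ugt2b genes, whose enzymes act on steroids, bile acids, fatty acids and drugs, were lower in 4 of 5 tested members, though none was called over all probe sets. Ugt2b5 gave 54.4 and 214.1 on the conventionalized arrays and 429.5 and 459.4 on the germ-free arrays. The germ-free duplicates were close, while the conventionalized duplicates lay far apart, both below the germ-free arrays. The log2 difference of Ugt2b5 was -1.71 ± 0.59 (SE, limma adjusted p = 0.334), and -0.95 without conventionalized replicate 1.

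Ugt2b36 gave 392.7 and 239.2 on the conventionalized arrays, against 625 and 933.1 on the germ-free arrays, a log2 difference of -1.23 ± 0.46 (limma adjusted p = 0.504). The difference of Ugt2b36 was -0.91 without conventionalized replicate 2 and -0.95 without germ-free replicate 2. Ugt2b34 gave 2442.1 and 3171.7 against 4369.5 and 7244.9, a log2 difference of -1.01 ± 0.46 (limma adjusted p = 0.846), which came to -0.64 without germ-free replicate 2. A second probe set of Ugt2b34 differed by -1.28 ± 0.43 and had no overlap between groups either, so both probe sets of this gene lay lower. The brighter one carries the suffix _s_at, marking probes that can bind related transcripts.

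Ugt2b35 gave 1187.8 and 778.5 on the conventionalized arrays and 1255.7 and 1916.5 on the germ-free arrays. The groups did not overlap, but the higher conventionalized and the lower germ-free array were close, and the log2 difference was -0.67 ± 0.42 (limma adjusted p = 0.999). It was -0.38 without conventionalized replicate 2 and -0.37 without germ-free replicate 2. Ugt2b1 was the tested UGT gene above 0, with 99.3 and 245.4 against 142.3 and 43.5, so that its groups overlapped (0.73 ± 0.97). Ugt2b37 and Ugt2b38 were too dim to test, with all signals under 50.

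In all, 4 of 6 tested UGT genes differed by at least 2-fold with no overlap of the groups, all lower in conventionalized cells. Of these 4, Ugt2b5, Ugt2b36 and Ugt2b34 each came under 2-fold with some single array left out. Over all 32 tested members this held for 6 lower and 2 higher genes, where 4.88% of tested genes were lower and 4.0% higher in this way.

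**Figure D2:**
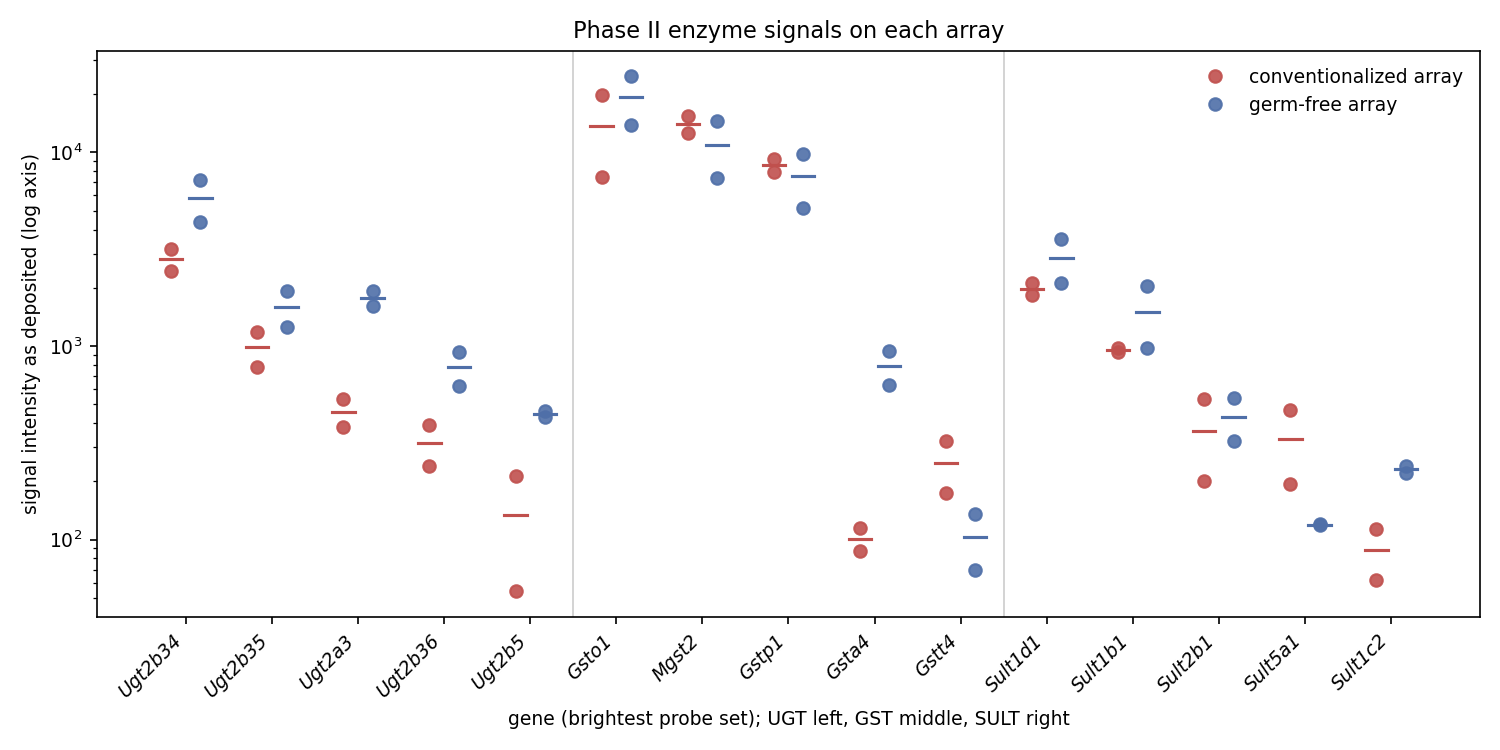
Signal as deposited (y axis, log scale) on each of the 4 arrays for the 15 members given in full, with the mean of each group as a short line; heights are not comparable between genes, since probe sets differ in brightness. Conventionalized arrays lie below germ-free arrays for the 5 UGT genes and Gsta4, and the groups overlap for Gsto1, Mgst2 and Gstp1.

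The Ugt1a genes share their last exons, and their 3 probe sets each named 8 Ugt1a genes, so no single enzyme can be read from them. The brightest gave 10094.3 and 10131.2 on the conventionalized arrays, against 10119.4 and 20828.7 on the germ-free arrays. Germ-free replicate 2 alone stood above the other 3 arrays, and the log2 difference was -0.52 ± 0.61. The other probe sets differed by -0.81 ± 0.57 and -0.37 ± 0.42, with the same array highest in each. None of the 3 was called by limma. A probe set naming Ugt2a1 and Ugt2a2 together was under the signal filter.

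The UGT2 genes lie side by side. In the gene order of assembly GRCm38.p6, chromosome 5 carries a run of 13 protein-coding genes from Ugt2b34 to Sult1e1, all of the UGT2 and SULT1 families, of which 11 are members here. Of the 8 tested, 7 had a log2 difference below 0, Ugt2b1 being the exception. The Gstm genes form a run of 7 on chromosome 3, and their 6 tested members all had overlapping groups, with differences from -0.17 to 0.35. Neighbouring genes with like sequence can share probe signal, so members of a run are not independent of each other.

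**Figure D3:**
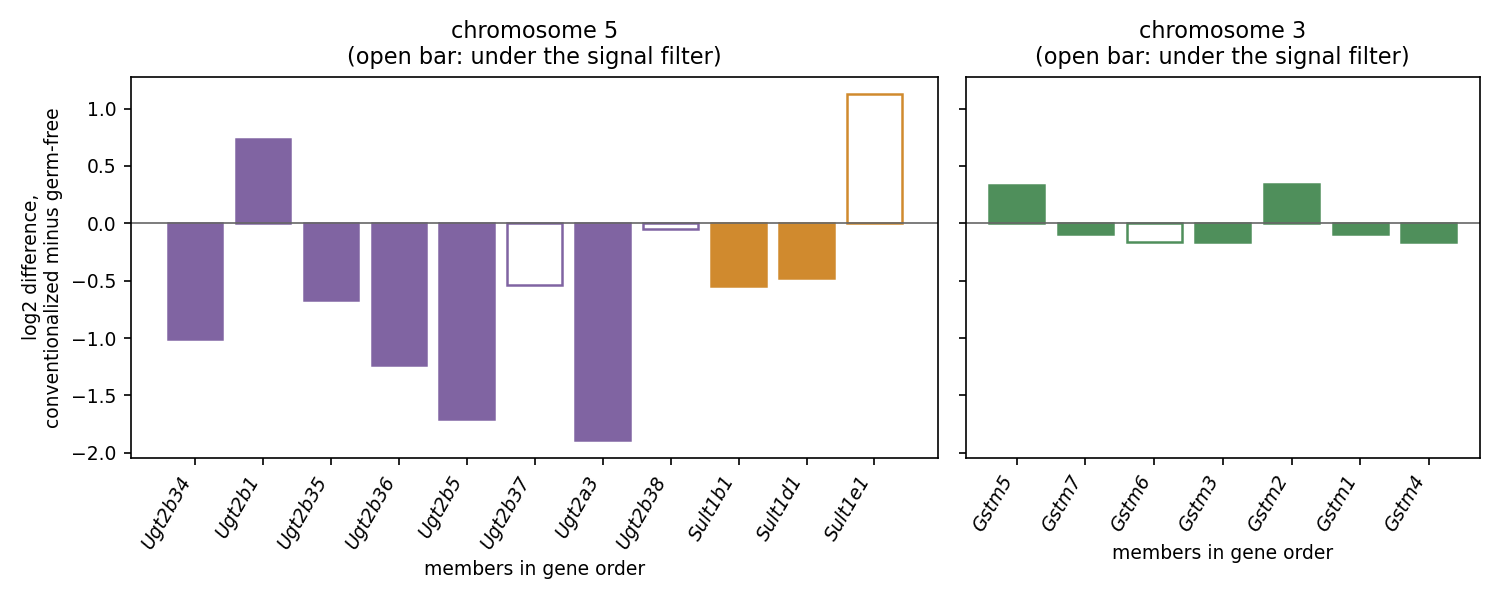
Log2 difference (y axis, conventionalized minus germ-free) of members in their gene order on chromosome 5 and chromosome 3, with open bars for genes under the signal filter. Ugt2 and Sult1 genes lie mostly below 0, down to -1.89 for Ugt2a3, while the Gstm genes stay between -0.17 and 0.35.

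Because 5 of the 6 tested UGT2 genes lay lower, the 100 bases before the start of all 8 UGT2 genes are shown, to let their shared letters be compared. Sequences are from RefSeq, assembly GRCm38.p6, written 5′ to 3′ on the strand of the gene. Capitals mark the paired sequence GTTA, any 4 bases, TTAAC, of the kind that the transcription factor HNF1 is known to bind, or a single HNF1 site GTTAAT, both searched on both strands. No window of these genes held both. The letters of the paired sequence were chosen after these windows were seen.
Ugt2a3 (chr5:87337196-87337295, minus strand): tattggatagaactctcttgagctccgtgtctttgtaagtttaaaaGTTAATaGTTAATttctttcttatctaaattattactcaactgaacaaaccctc
Ugt2b5 (chr5:87140341-87140440, minus strand): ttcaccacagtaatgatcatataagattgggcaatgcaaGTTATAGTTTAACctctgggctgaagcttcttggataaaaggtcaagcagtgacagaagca
Ugt2b36 (chr5:87092556-87092655, minus strand): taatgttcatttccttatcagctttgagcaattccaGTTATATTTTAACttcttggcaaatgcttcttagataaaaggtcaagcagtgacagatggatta
Ugt2b34 (chr5:86906938-86907037, minus strand): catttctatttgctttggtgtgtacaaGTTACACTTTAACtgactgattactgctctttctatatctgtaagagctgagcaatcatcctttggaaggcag
Ugt2b35 (chr5:87000760-87000859, plus strand): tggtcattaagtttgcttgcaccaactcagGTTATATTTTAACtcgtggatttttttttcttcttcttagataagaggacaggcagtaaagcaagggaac
Ugt2b1 (chr5:86926504-86926603, minus strand): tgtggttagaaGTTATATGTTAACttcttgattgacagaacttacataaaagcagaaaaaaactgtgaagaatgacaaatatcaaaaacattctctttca
Ugt2b37 (chr5:87254789-87254888, minus strand): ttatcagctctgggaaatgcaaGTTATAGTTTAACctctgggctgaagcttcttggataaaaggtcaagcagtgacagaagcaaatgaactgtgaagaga
Ugt2b38 (chr5:87424204-87424303, minus strand): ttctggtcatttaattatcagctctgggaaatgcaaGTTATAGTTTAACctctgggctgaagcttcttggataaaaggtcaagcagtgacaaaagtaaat

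The paired sequence was present in 7 of 8 UGT2 windows when 250 bases before the start were searched, and in 0.170% of the 32851 windows of all genes. It began 61 to 89 bases before the start in these 7 genes. Ugt2a3 had no such sequence and held GTTAAT at 54 and at 47 bases before its start. The shorter GTTAAT was present in 6.43% of the windows of all genes. The paired sequence was also present in Ugt2b1, whose difference was above 0 with overlapping groups. Ugt2b37 and Ugt2b38, too dim to test, held it as well. Whether it bears on the differences in signal was not tested. Within the 100 bases printed, Ugt2b37 shared an unbroken run of 68 bases with Ugt2b5 and one of 77 bases with Ugt2b38. Promoter windows matched 40 of the 44 members. Gsta4 was not among these, so its upstream sequence was not searched. The antioxidant response element TGACNNNGC, the type of sequence bound by the stress regulator Nrf2, was in 4 of 30 windows of GST genes and in 10.2% of all windows.

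Among the alpha-class GST genes, Gsta4 (gene identifier 14860) encodes the transferase that conjugates 4-hydroxynonenal and related products of lipid peroxidation. It gave 114.2 and 87.3 on the conventionalized arrays, against 629.2 and 942.7 on the germ-free arrays. Both conventionalized arrays were low and both germ-free arrays high, by several times the gap between duplicates. Gsta4 fell by 2.60 on the log2 scale (SE 0.53; limma adjusted p = 0.0010), a signal 6.08-fold lower on the scale of signal plus 32. The mean of its conventionalized arrays, 100.75, lay under the filter of 113.9, which Gsta4 passed through its germ-free arrays. The call was lost with quantile normalization (adjusted p = 0.055), with the mean of all probe sets (0.111), with no variance trend, and with germ-free replicate 1 or 2 left out (0.091 and 0.746). Without conventionalized replicate 2 the difference was -2.46 (adjusted p = 0.0063). With 1 array left out, the lone array of its group is assumed to vary like the other arrays, so such a p leaves out that group's own spread. Without the variance trend the limma adjusted p of Gsta4 was 0.9995. Gsta4 has 1 probe set, so the mean of all probe sets left its values unchanged. That fit ran over 10792 genes in place of 22491 probe sets.

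The other alpha-class genes were dimmer and less settled. Gsta2, a transferase with peroxidase activity, gave 37.8 and 129.6 against 177.4 and 137.7. A probe set naming Gsta1, Gsta2 and Gm3776 together gave 175.3 and 427.8 on the conventionalized arrays and 416.9 and 642.4 on the germ-free arrays. The lower germ-free array there lay just under the higher conventionalized array, and the difference was -0.83 ± 0.49. The brighter of 2 Gsta3 probe sets differed by 0.54 and the other by -0.34, so this gene has no settled direction.

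The GST genes with the brightest probe sets were not called, and their groups overlapped. Gsto1, an omega-class enzyme that reduces dehydroascorbate, gave 19787.6 and 7508.6 on the conventionalized arrays and 13839.9 and 24695.4 on the germ-free arrays. Its log2 difference was -0.60 ± 0.65, but 0.10 without conventionalized replicate 2, and its second probe set differed by 0.24. Mgst2, a membrane-bound transferase that can also make leukotriene C4, gave 12551.7 and 15399.3 against 7409.5 and 14560.6.

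The difference of Mgst2 was 0.42 ± 0.61, or -0.07 without germ-free replicate 1. Gstp1, the pi-class enzyme, gave 7930.2 and 9221.9 on the conventionalized arrays and 5183.8 and 9863.3 on the germ-free arrays. Its difference of 0.26 ± 0.54 came to -0.21 without germ-free replicate 1. For both genes the spread between the germ-free duplicates was larger than that between the groups. The microsomal Mgst1 and Mgst3 differed by 0.12 ± 0.51 and -0.08 ± 0.42. A second, dim probe set of Mgst1 read 92.1 and 256.7 against 19.5 and 17.7 and was not tested.

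The theta-class GST genes, whose enzymes act on small halogenated compounds, went both ways. Gstt3, Gstt1 and Gstt2 had log2 differences of -0.82, -0.54 and -0.44, each under 1.5 times its SE. Gstt4 gave 325 and 175.1 on the conventionalized arrays, against 136.1 and 69.9 on the germ-free arrays, a difference of 1.05 ± 0.75 (limma adjusted p = 0.999). Its groups did not overlap, although it was not called. Without conventionalized replicate 1 its difference was 0.66. Gstz1, the maleylacetoacetate isomerase of tyrosine breakdown, gave 110.3 and 52.1 against 215 and 158, a difference of -0.99 ± 0.92. Gstk1, a kappa-class enzyme of mitochondria and peroxisomes, differed by -0.19 ± 0.47. Gsto2, Gstp3 and Gstm6 were too dim to test.

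SULT enzymes of the cytosol transfer sulfate to phenols, catecholamines and steroids. Of 13 SULT genes, 6 were tested, none was called, and none had an unadjusted p under 0.05. Sult1d1, which in mouse acts on catecholamines, gave 2108.4 and 1845.1 on the conventionalized arrays, against 2128.2 and 3561.7 on the germ-free arrays. Conventionalized replicate 1 and germ-free replicate 1 were nearly equal, and the log2 difference was -0.48 ± 0.43, or -0.11 without germ-free replicate 2. A second probe set of Sult1d1 gave 739.3 and 871.3 against 1039.9 and 1495. It differed by -0.62 ± 0.42 with no overlap and was not called. Sult1b1, a transferase for phenols and thyroid hormones, gave 933.7 and 980.9 against 978.8 and 2037. Here too germ-free replicate 2 stood above the other 3 arrays, and the difference of -0.55 ± 0.42 came to -0.03 without it.

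Sult1c2 was lower with no overlap, at 62.2 and 114 on the conventionalized arrays and 221.1 and 239.8 on the germ-free arrays. Its log2 difference was -1.16 ± 0.80 (limma adjusted p = 0.999). Sult2b1, which sulfates cholesterol and related sterols, gave 201.4 and 529.8 against 538.9 and 324.1. Its difference of -0.32 ± 0.50 changed sign, to 0.32, without conventionalized replicate 1. Sult5a1 was higher with no overlap, at 193 and 465.2 on the conventionalized arrays and 119.8 and 119.4 on the germ-free arrays, a difference of 1.14 ± 0.65 (limma adjusted p = 0.999), or 0.57 without conventionalized replicate 2. Sult6b1 differed by -0.23 ± 0.90.

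The 7 dim SULT genes included Sult1e1, the estrogen sulfotransferase, with 68 and 65.4 on the conventionalized arrays and 6.3 and 21.4 on the germ-free arrays. Sult4a1, named after its values were seen, had the largest difference of the 7 (1.41), at 50.7 and 272.6 against 34 and 22.3. Of the 7, only Sult1a1 (-0.16) and Sult2a8 (-0.78) lay below 0, unlike most tested SULT genes. Sult1a1 read 56.2 and 53.2 against 226 and 4.6, so that its germ-free duplicates disagreed more than the groups did. Such low signals are close to the pseudocount of 32, and no test was made of them.

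Genes that supply the conjugation enzymes were read from lists chosen for their known role. UDP-glucuronate supply held 4 genes, all tested, with log2 differences from -1.46 to -0.21 (median -0.87) and none called. Ugdh, which makes UDP-glucuronate, gave 774.5 and 1069.5 on the conventionalized arrays, against 1197.7 and 1659.3 on the germ-free arrays, a difference of -0.61 ± 0.42. Ugp2, which makes its precursor UDP-glucose, gave 2438.9 and 1730.3 against 2126.8 and 2676, a difference of -0.21 ± 0.42 with overlapping groups. Of 5 PAPS supply genes, 4 were below 0 and none was called (range -1.23 to 0.54, median -0.65).

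Papss1, a PAPS synthase, gave 810.7 and 519.5 on the conventionalized arrays and 1230.8 and 1851.6 on the germ-free arrays (-1.18 ± 0.42, limma adjusted p = 0.391). Bpnt1, which breaks down the spent PAPS, gave 889.4 and 745.2 against 1200.5 and 1392.5 (-0.65 ± 0.42). Papss2, the other PAPS synthase, named after its values were seen, gave 373.5 and 522.8 against 917 and 1276.8 (-1.23 ± 0.44, limma adjusted p = 0.382). Neither synthase had overlapping groups, as held for 3 of the 5 genes of this list in the lower direction and for 1 in the higher. Over all tested genes, 16.1% lay lower and 15.9% higher with no overlap.

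Glutathione supply had a median of -0.23 over 8 tested genes (range -1.55 to 0.16), with 7 below 0 and none called. Gss, the second enzyme of glutathione synthesis, gave 1118.9 and 1015.1 on the conventionalized arrays and 1237.4 and 1091.5 on the germ-free arrays (-0.12 ± 0.42). Gclc, the catalytic subunit of the first step, gave 829 and 689.5 against 721.7 and 873.9 (-0.07 ± 0.43). Both had overlapping groups. Cth and Gclm, named after their values were seen, had larger differences. Cth, which makes cysteine from cystathionine, gave 452.4 and 104.9 on the conventionalized arrays and 644.8 and 812.5 on the germ-free arrays (-1.55 ± 0.48, limma adjusted p = 0.183). Gclm, the modifier subunit of the first step, gave 220.4 and 40.7 against 418.1 and 211.7, with overlapping groups (-1.29 ± 0.68). Conventionalized replicate 2 was the lowest array for both genes.

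Among 7 tested genes for removal of conjugates, 3 were below 0 and 4 above (range -2.49 to 0.65, median 0.03). Acy1, an aminoacylase that removes acetyl groups from amino acids, was the 1 gene of all 7 pathway lists that was called, with 56.9 and 74.4 on the conventionalized arrays and 473.2 and 555.2 on the germ-free arrays. It fell by 2.49 on the log2 scale (SE 0.64; limma adjusted p = 0.032). The mean of its conventionalized arrays, 65.65, lay under the filter of 113.9, which Acy1 passed through its germ-free arrays. Acy3, the other aminoacylase listed, was too dim to test, at 91 and 54.4 against 148.5 and 84.7. Dpep1, a dipeptidase that trims glutathione conjugates, gave 943.2 and 1194.6 on the conventionalized arrays and 2298.4 and 3816.5 on the germ-free arrays and was not called (-1.45 ± 0.42, limma adjusted p = 0.093). Glo1, which with glutathione detoxifies methylglyoxal, gave 6370 and 2979.7 against 3760.2 and 4839.3 (0.03 ± 0.47). Acy1 and Dpep1 were the 2 of these 7 genes lower with no overlap. Gusb was the 1 higher with no overlap, at 452.8 and 248.8 against 208.2 and 199.3. The shares over all tested genes were 16.1% lower and 15.9% higher.

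Other conjugating enzymes had a median of -0.15 over 7 tested genes (range -1.48 to 0.36), with 5 below 0 and none called. Nat8, which acetylates cysteine conjugates, gave 686.2 and 1082.9 on the conventionalized arrays and 2418.1 and 2498.8 on the germ-free arrays (-1.48 ± 0.42, limma adjusted p = 0.078). It was the 1 gene of these 7 that was lower with no overlap, and none was higher. The shares over all tested genes were 16.1% and 15.9%. Tpmt, a thiopurine methyltransferase, gave 788.6 and 240.9 against 1019.6 and 230, so that its duplicates lay further apart than the groups (-0.15 ± 0.47).

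Of 10 efflux transporters, 4 were below 0 and none was called (range -1.08 to 0.39, median 0.08). Abcb1a, a P-glycoprotein, gave 769.3 and 1208.6 on the conventionalized arrays and 1450.7 and 2966.7 on the germ-free arrays (-1.08 ± 0.42, limma adjusted p = 0.551). Abcc5, an organic anion exporter, gave 2881.1 and 3471 against 2857.5 and 2035.6 (0.39 ± 0.43). With no overlap, 3 of the 10 genes were lower, Abcb1a among them, and 1 was higher, Abcc5. The shares over all tested genes were 16.1% lower and 15.9% higher.

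Of 12 tested xenobiotic-sensing and intestinal regulators, 8 were below 0 and none was called (range -1.49 to 0.46, median -0.16). The groups did not overlap for 4 lower genes and 1 higher gene, where 16.1% of all tested genes lay lower and 15.9% higher. Hnf4a, a nuclear receptor of gut epithelium, gave 7338.9 and 9128.6 on the conventionalized arrays and 5662.7 and 10552.8 on the germ-free arrays (0.08 ± 0.54). Cdx2, an intestinal homeobox factor, gave 1929.6 and 1542.9 against 2675.2 and 2029.2 (-0.43 ± 0.42). Ahr and Ppara, named after their values were seen, had the lowest differences of this list. Ahr, the aryl hydrocarbon receptor, gave 483.3 and 107.5 on the conventionalized arrays and 579.4 and 687.4 on the germ-free arrays (-1.31 ± 0.49, limma adjusted p = 0.486). Ppara, a nuclear receptor for fatty acids, gave 140.5 and 35.2 against 273.8 and 265.5 (-1.49 ± 0.78, limma adjusted p = 0.998). In both, conventionalized replicate 2 was the lowest array.

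**Figure D4:**
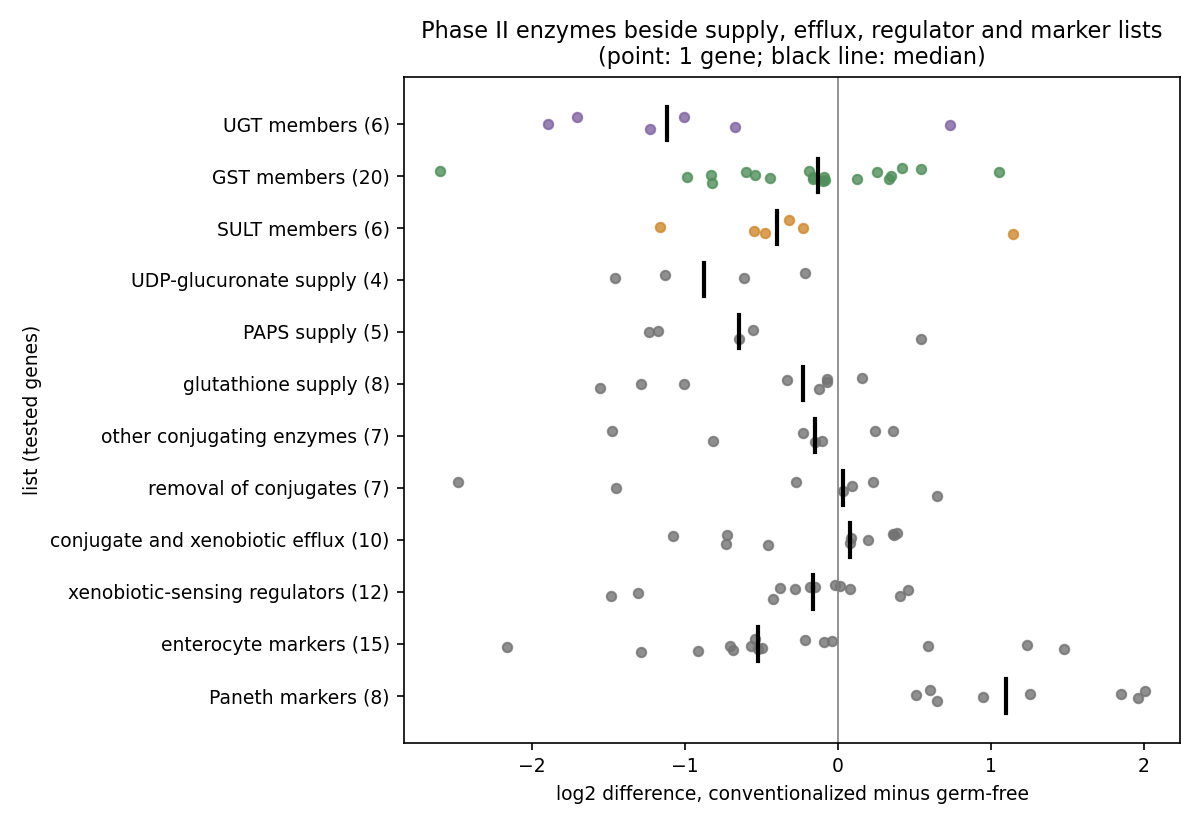
Log2 difference (x axis, conventionalized minus germ-free) of the tested genes of each family or list shown, with the number of genes in brackets and the median as a black line. Medians run from -1.12 for UGT members to 1.10 for Paneth markers, with enterocyte markers at -0.52.

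Enterocyte markers had a log2 difference below 0 in 12 of 15 cases, with 1 called and 10 with overlapping groups. With no overlap, 3 were lower and 2 higher, where 16.1% of all tested genes lay lower and 15.9% higher. Paneth markers had a difference above 0 in 8 of 8, with none called. Of these 8, 7 were higher with no overlap, 4 of them at least 2-fold, and none was lower with no overlap. Over all tested genes, 4.0% were at least 2-fold higher with no overlap. Among enterocyte markers, Lct gave 2729 and 4774.1 on the conventionalized arrays against 7693.4 and 10232 on the germ-free arrays, whereas Fabp2 gave 51528 and 142558.1 against 20981.4 and 45251.9. These markers therefore did not all go one way, and their part in the differences of the phase II genes was not tested. In RNA of captured tissue, fewer cells of a type and less RNA per cell cannot be told apart.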

How the data were processed

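Paneth cell RNA of 2 pools, 1 per group, was measured on 4 Affymetrix Mouse430_2 arrays (chip type per the file headers). The authors deposited 1 linear signal intensity per probe set and array. With 2% of values trimmed at each end, every array had a mean of 250, so the values were left as scaled. The software behind them is not given in the sources used here. File headers were also read for fluidics station.

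Gene names came from the platform annotation: 34958 of 45101 probe sets named 1 gene, 932 several and 9211 none. Intensities became log2(intensity + 32), which understates the change of dim genes. Probe sets with a mean over the 4 arrays above 113.9 were tested with limma 3.58.1 in R 4.3.3 (lmFit, eBayes with a variance trend), without the 64 control probe sets. The prior degrees of freedom were infinite, so each SE reflects the spread among probe sets as bright as the gene's own. The fit was tested on simulated data whose spread depended on signal alone, as the fit assumes. That run could not test the assumption itself. Aliquots with the same number did not deviate together (correlation -0.13), so no pairing was used. The number of arrays limits the precision.

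Members and lists were chosen with earlier results of these data known. Values on every array are given for members called, for tested members at least 2-fold apart with no overlap, and for the 3 brightest of each family; of each pathway list, for called and the 2 brightest genes. Other genes are given by range and counts, or were named after their values were seen. The alternatives are listed in the closing section.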

Additional observations from a re-analysis of the deposited data

How the results depend on the processing

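The call of Gsta4 held in 8 of 13 alternatives and that of Ugt2a3 in 5 of 13, and both differences stayed below 0 in all 13. The alternatives were a smaller pseudocount (8) and a larger one, 4 times the 32 used, no signal filter, testing the brightest 25% alone, median centring, quantile normalization, the replicate block, no variance trend, the mean of all probe sets of a gene, and leaving out each array. The count of members called lower, 2, was 1 with median centring or with the replicate block. It was 0 with quantile normalization, without the variance trend and with the mean of all probe sets, and 0 to 2 with 1 array left out. Without the variance trend limma called 0 of 22491 probe sets, and 3 members had an unadjusted p under 0.05. With the mean of all probe sets of a gene it called 1 of 10792 genes, and 7 members had an unadjusted p under 0.05. Quantile normalization called 33 probe sets and median centring 27, of which 6 were higher and 21 lower, against 27 higher and 48 lower of 75. With 1 array left out the count ran from 41 to 213. With the replicate block, which pairs aliquots by number, Ugt2a3 lost its call (adjusted p = 0.110) and the probe sets called went to 30, against 75 without it. With the numbers crossed, an alternative chosen after seeing the data, 228 were called, and 2 members.

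With 1 array left out the GST median ran from -0.37 to 0.24, the UGT median from -1.44 to -0.80 and the SULT median from -0.54 to -0.38; the GST median turned to 0.24 without conventionalized replicate 1. The SULT median was -0.48 in the brightest 25%, -0.43 with the mean of all probe sets, -0.44 with median centring, -0.16 without a filter, -0.35 with the larger pseudocount and -0.36 with quantile normalization. With 1 array left out, single genes changed sign: Gsto1 ran from -1.30 to 0.10, Gstp1 from -0.21 to 0.72, Mgst2 from -0.067 to 0.91 and Sult2b1 from -0.95 to 0.32. Sult2b1 was 0.02 without germ-free replicate 1. The cause was not tested. Signals near the pseudocount limit the dim members.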
